A study of Neurospora crassa with 6 samples.

Results

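The genes described here encode the heat shock proteins, molecular chaperones and prolyl isomerases of the filamentous fungus Neurospora crassa. They were taken as the genes whose annotated product text names a heat shock protein, a chaperone or chaperonin, DnaJ, Hsp, T-complex protein, prefoldin or a peptidyl-prolyl isomerase, leaving out products that name a transcription factor or a histone. This rule found 66 of the 9691 genes in the deposited tables and set aside 3 histone chaperones. RNA of 6 wild-type cultures was sequenced from poly(A) RNA. Asexual spores (conidia) grew for 6 h before a 1 h exposure to 20 µM staurosporine, a protein kinase inhibitor known to kill N. crassa cells, or to DMSO as the solvent control. Both exposures were done in each of 3 minimal media (standard, 0 Ca2+, and 20 mM CaCl2), so there were 6 groups, each with 1 library. The labels do not name the wild-type strain, and each group holds a single culture, which leaves differences within a medium with no replicate error.

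Chaperones bind proteins that are not yet folded or have lost their fold. Hsp70 takes up short hydrophobic stretches under the control of J-domain proteins, which start its ATP hydrolysis, and of exchange factors, which reset it. Hsp90 receives many of its clients, among them protein kinases, from Hsp70. Chaperonins enclose a protein in a chamber, Hsp100 proteins pull aggregates apart, and small Hsps hold unfolded chains. Peptidyl-prolyl isomerases, which comprise cyclophilins, FK506-binding proteins and parvulins, turn the peptide bond before proline. In N. crassa, as in other fungi, many of these genes are transcribed during normal growth as well as after heat.

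Levels are given in FPKM, fragments scaled by transcript length and by library size, which the authors computed and which allow a comparison between genes because they are set per length. The mean FPKM of the members over the 6 libraries ran from 0.271 to 3455 with a median of 53.2, and 25 members had a mean of at least 100. No member was listed at 0 in any library. The highest was csr-1, a cyclophilin whose loss makes N. crassa resistant to cyclosporin A, followed by hsp70-2 and the FK506-binding protein gene fkr-2. At the bottom, a heat shock protein 30 gene, NCU07232, lay between 0.0730 and 0.877 FPKM, and a bcs1-type gene, NCU03767, between 0.161 and 0.623. These 2 members had a mean below 1 FPKM and are left out of every count below, so the counts refer to 64 members. The rule works on words, and 10 members are chaperones for 1 complex, 1 enzyme or a metal (BCS1, Cox17, frataxin and others) rather than general folding helpers. Among general ones it misses are grp78 and calreticulin, whose product text holds none of its words.

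Facts about whole libraries touch every value. FPKM summed to between 940589.8 and 1001098 in the DMSO libraries and to between 500315 and 696047 in the staurosporine libraries, and read depth is unknown. Rescaling each library to an equal sum raised the median log2 ratio of staurosporine to DMSO over genes of at least 10 FPKM by 0.89 (standard), 0.44 (0 Ca2+) and 0.57 (20 mM CaCl2). Directions below are those of the deposited FPKM, and many small ratios change side under the rescaling. Of the 64 members counted below, 42, 48 and 46 had a ratio below 0 as deposited and 13, 38 and 11 under equal sums. Of all genes counted, 3241 of 7167, 4015 of 7531 and 4348 of 7204 lay below 0 as deposited. Under equal sums 1305 of 7167 and 2837 of 7531 did in standard and 0 Ca2+ medium. The count over all genes in 20 mM CaCl2 medium under equal sums is not given, so the 11 members stand without a background. The members made up 1.52%, 1.63% and 1.54% of the sum in the DMSO libraries of standard, 0 Ca2+ and 20 mM CaCl2 medium, and 2.20%, 1.45% and 1.91% in the staurosporine libraries in the same order. The library of 0 Ca2+ medium with staurosporine was the one least like the others, with correlations across genes of 0.734 to 0.850. All 5 genes taken as markers of conidia were measured, and their summed FPKM was 168, 248 and 224 with DMSO and 273, 560.4 and 189 with staurosporine. Most of each sum came from ccg-1, at 465 FPKM in the 0 Ca2+ staurosporine library. In that library con-6 was at 42.2 and con-10 at 35.1, where the next highest values were 4.63 and 7.14. The marker con-8 was also highest there, at 10.3. The marker eas was not, at 7.95 FPKM there against 39.4 and 52.2 with staurosporine in standard and 20 mM CaCl2 medium. Its highest value was 69.7, in 20 mM CaCl2 medium with DMSO, and in 0 Ca2+ medium with DMSO it was at 2.10. The part of these marker differences in the chaperone values was not tested. In bulk cultures fewer cells and less RNA per cell cannot be told apart.

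Without drug the chaperone genes hardly moved with the medium, and with staurosporine they spread widely. Over the 3 DMSO libraries the range of a member, as log2(FPKM + 1), had a median of 0.25, against 0.36 for all 7415 genes with a mean of at least 1 FPKM. A range of at least 2 times was seen in 1 member, fkr-3, against 10.1% of all genes. Over the 3 staurosporine libraries the median range of the members was 1.03, and 35 of 64 members spanned at least 2 times, against 57.5% of all genes. So the members had smaller ranges than all genes in DMSO and ranges about as wide with staurosporine. The sets differ in level: 61 of 64 members but 4667 of the 7415 genes had a mean of at least 10 FPKM. How much of the difference in DMSO goes with level was not tested. Each range covers 1 library per medium and holds library noise as well as any effect of the medium.

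Members were counted as higher or lower when log2((FPKM + 1) ratio) was at least 1 in size, which is a rule of size and no test. In standard medium 4 of 64 members were higher and 10 lower with staurosporine, where 13.4% and 14.9% of all genes were. In 0 Ca2+ medium 4 were higher and 27 lower, where 18.7% and 20.9% of all genes were. In 20 mM CaCl2 medium 1 was higher and 3 lower, where 2.62% and 6.16% of all genes were. The share of lower members stood above the background in 0 Ca2+ medium, and the other shares lay near or below it. Under equal sums these counts became 20 higher and 3 lower in standard, 7 and 19 in 0 Ca2+, and 5 and 1 in 20 mM CaCl2 medium. All genes then had shares of 47.2% and 5.11%, 28.3% and 13.8%, and 12.8% and 1.72%. The members' median log2 ratio was -0.29 (standard), -0.84 (0 Ca2+) and -0.27 (20 mM CaCl2), and that of all genes counted was 0.11, -0.092 and -0.14. The members' median thus lay below that of all genes in each medium. Under equal sums the members' medians were 0.60, -0.40 and 0.31 and those of all genes 0.94, 0.32 and 0.39. Rescaling adds nearly the same amount to every ratio of a medium, so it could hardly change this order and is no check of it.

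**Figure D1:**
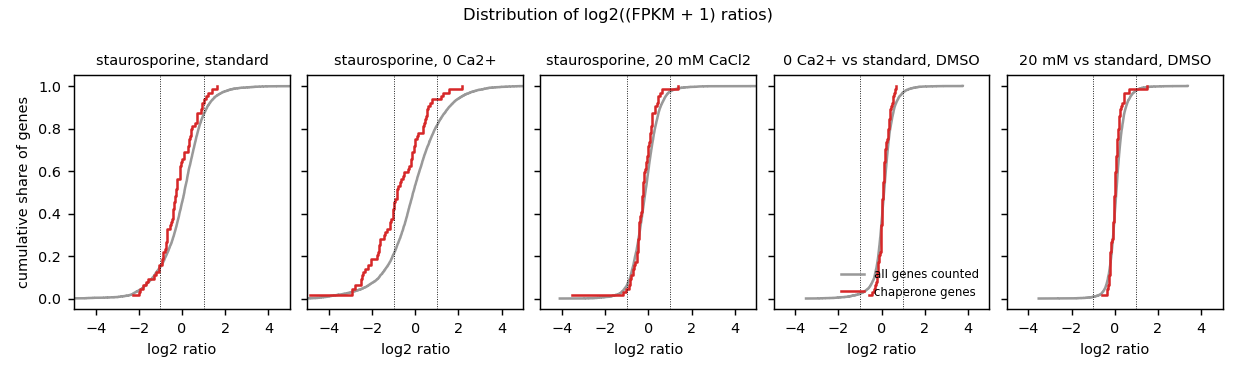
Cumulative share of genes (y axis) at or below a log2((FPKM + 1) ratio) (x axis, shown from -5 to 5) in 5 comparisons of libraries, for the 64 chaperone genes counted (red) and all genes counted (grey). Dotted lines mark a ratio of 2 times. With staurosporine in 0 Ca2+ medium the red curve runs left of the grey one, with 27 members below -1.

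Over the 3 media no single chaperone gene passed the test. The 3 within-medium log2 ratios of each gene were tested against 0 with limma's moderated test over 7415 genes. Its spread comes from 3 ratios and also holds effects of the media, so its power was low. A gene that was not called may still have changed. Of 64 members 0 were called at a Benjamini-Hochberg adjusted p below 0.05 with a mean log2 ratio of at least 1 in size, where 0.0809% of all genes were called higher and 0.0809% lower. The lowest adjusted p of a member was 0.292, and 14 members had an unadjusted p below 0.05 (3 with a mean above 0 and 11 below), a share of 21.9% against 14.1% of all genes. An unpaired limma fit of the same libraries also called 0 members, where it called 7 of the 7415 genes higher and 6 lower. It had 16 members at an unadjusted p below 0.05, a share of 25% against 13.2% of all genes. The outcome rested on single pairs of libraries. Without the 20 mM CaCl2 pair limma called 4 members lower, namely hsp70-2 (adjusted p = 0.0228), NCU00692 (0.0168), NCU01516 (0.0268) and NCU03231 (0.0312), where 4.88% of all genes were called lower. Without the 0 Ca2+ pair it called 1 lower, fkr-3 (adjusted p = 0.0474), where 0.27% of all genes were. Without the standard pair it called 0 members, but also 0 of all 7415 genes in either direction, so that 0 says nothing about the members. In all, 24 of 64 members had their 3 staurosporine values below all 3 DMSO values, against 14.8% of all genes, and 5 had them above, against 7.5%. With equal sums 3 members lay below, against 2.76% of all genes, and 10 above, against 29.7%, so the 24 rest on the scale of the deposited FPKM. Without the 0 Ca2+ pair 34 members lay below in the remaining libraries, against 27.3% of all genes.

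**Figure D2:**
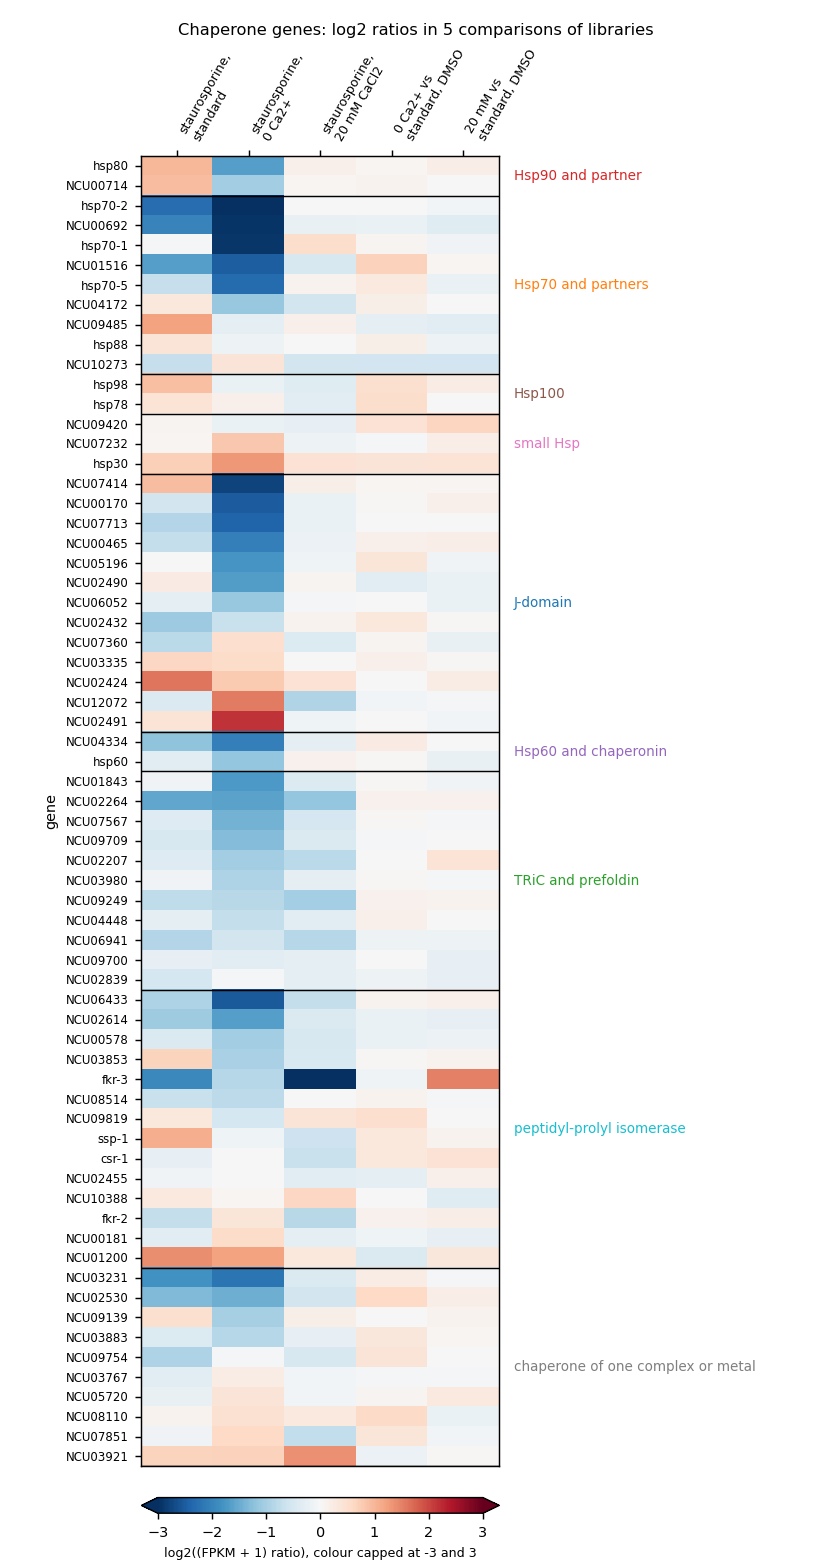
Log2((FPKM + 1) ratio) of all 66 members (rows, grouped by role and ordered by the 0 Ca2+ ratio) in 3 staurosporine against DMSO comparisons and 2 comparisons of media with DMSO (columns), colour capped at -3 and 3. The second column (0 Ca2+ medium) holds most of the dark blue cells, led by hsp70-2 at -4.86, and the third has fkr-3 at -3.55, while the last 2 columns are pale but for fkr-3 at 1.52.

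The Hsp90 gene hsp80 and its partner STI1 went opposite ways in standard and 0 Ca2+ medium. Hsp90 completes the folding of kinases and other signalling proteins. The hsp80 gene (NCU04142) was at 275, 288 and 317 FPKM in the DMSO libraries of standard, 0 Ca2+ and 20 mM CaCl2 medium, and at 549, 90.3 and 353 with staurosporine. The DMSO values lay close together, and the staurosporine values lay on both sides of them. Its log2 ratios were 0.99, -1.66 and 0.15, and limma gave a mean of -0.17 (SE 0.54, adjusted p = 0.915). STI1 (NCU00714), which links Hsp70 to Hsp90, had the same order, at 57.8, 62.2 and 58.3 FPKM with DMSO and 111, 29.7 and 60.7 with staurosporine. Its log2 ratios were 0.93, -1.04 and 0.06. Under equal sums hsp80 stood at 1.90, -1.21 and 0.74 and STI1 at 1.83, -0.60 and 0.64, so neither changed side in any medium.

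The largest ratio among the members was that of an Hsp70 gene, hsp70-2, in 0 Ca2+ medium. The next largest was that of the isomerase gene fkr-3, at -3.55 in 20 mM CaCl2 medium. The gene hsp70-2 (NCU02075) was the second most abundant member in every DMSO library, at 2579, 2550.1 and 2441 FPKM in standard, 0 Ca2+ and 20 mM CaCl2 medium. With staurosporine it was at 527, 87.1 and 2464. Its level was thus near the DMSO level in 20 mM CaCl2 medium alone, with log2 ratios of -2.29, -4.86 and 0.01 and a limma mean of -2.38 (SE 0.84, adjusted p = 0.314). Its relative hsp70-1 (NCU09602) was at 956, 1013 and 888 FPKM with DMSO and at 911, 133 and 1278 with staurosporine, so that only the 0 Ca2+ library was low. The ratios were -0.07, -2.92 and 0.52, and the standard value became 0.84 under equal sums. Related Hsp70 genes can share reads, and how the authors' quantification split them was not tested.

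**Figure D3:**
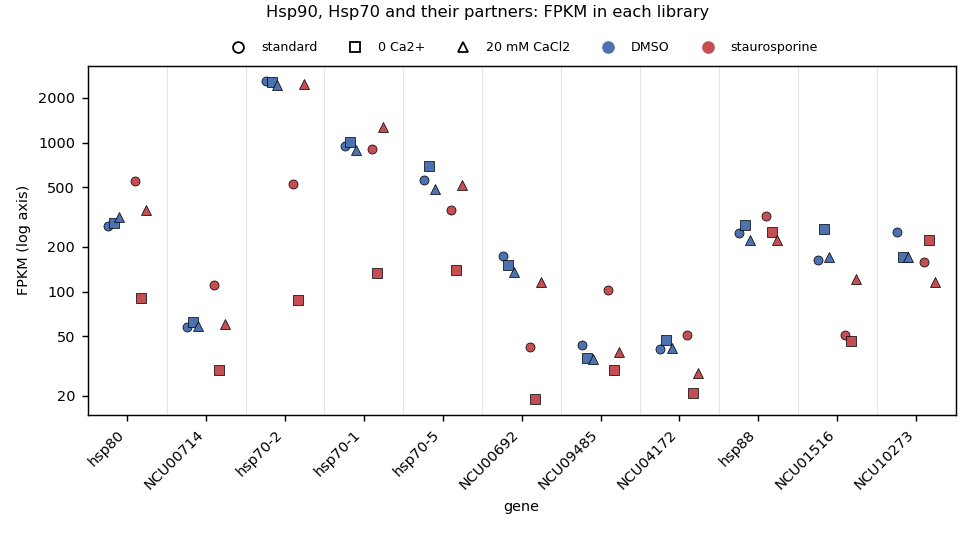
FPKM on a log axis (y axis) of hsp80, STI1 (NCU00714) and the 9 genes of Hsp70 and its partners (x axis) in each of the 6 libraries. Blue marks DMSO and red staurosporine, and each marker shape is 1 medium with 1 library. The blue points of a gene cluster, while the red square, 0 Ca2+ medium with staurosporine, lies lowest for most genes, at 87.1 FPKM for hsp70-2.

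The other Hsp70 family members divided. The gene annotated as chaperone dnaK NCU00692 was at 173, 151 and 136 FPKM with DMSO and at 42.6, 19.0 and 116 with staurosporine. All 3 staurosporine values lay below the DMSO values, with log2 ratios of -2.0, -2.93 and -0.22 (limma mean -1.72, SE 0.54, adjusted p = 0.292), and the 20 mM CaCl2 ratio was 0.36 under equal sums. Another gene with that annotation, NCU09485, was at 44.1, 35.9 and 35.4 FPKM with DMSO and 103, 29.7 and 39.2 with staurosporine. It was thus high in the standard staurosporine library only, at a log2 ratio of 1.20, against -0.27 and 0.15, the former 0.17 under equal sums. The Hsp70-like gene hsp70-5 was at 566, 698 and 489 FPKM with DMSO and at 352, 140.2 and 523 with staurosporine, with a log2 ratio of -2.31 in 0 Ca2+ medium and of -0.68 in standard medium, the latter 0.23 under equal sums. NCU04172, also Hsp70-like, had ratios of 0.31, -1.15 and -0.54, the last 0.03 under equal sums. In contrast hsp88, which encodes a larger relative of Hsp70 of the Hsp110 type, stayed between 221 and 324 FPKM in all 6 libraries as deposited. Under equal sums its ratios were 1.29, 0.29 and 0.58, so its steadiness rests on the deposited scale.

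Partners of Hsp70 followed no common course. The mitochondrial exchange factor GrpE (NCU01516), which resets Hsp70 in the matrix, was at 163, 263 and 169.8 FPKM with DMSO and at 50.8, 46.3 and 121 with staurosporine. Its groups did not overlap, and its log2 ratios were -1.66, -2.48 and -0.48 (limma mean -1.54, SE 0.45, adjusted p = 0.292), with the last at 0.10 under equal sums. NCU10273, annotated as an Hsc70 cochaperone, was the single gene of these 9 with a ratio above 0 in 0 Ca2+ medium, at 171 FPKM with DMSO and 223 with staurosporine. Ratios of -1 or less were found for 6 of the 9 in 0 Ca2+ medium, for 3 in standard and for 0 in 20 mM CaCl2 medium, against 20.9%, 14.9% and 6.16% of all genes. The medians were -2.31, -0.68 and -0.01 in that order. Under equal sums the medians were -1.86, 0.23 and 0.58.

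Ratios of 2 genes within 1 library do not depend on the scale of the library. FPKM of hsp70-2 divided by that of hsp70-1 was 2.70, 2.52 and 2.75 in the DMSO libraries of standard, 0 Ca2+ and 20 mM CaCl2 medium, and 0.578, 0.656 and 1.93 with staurosporine. The order of these genes was thus turned round in the standard and 0 Ca2+ staurosporine libraries. FPKM of hsp80 divided by that of hsp70-2 was 0.107, 0.113 and 0.130 with DMSO and 1.04, 1.04 and 0.143 with staurosporine. In both ratios the 20 mM CaCl2 library with staurosporine was the closest of the staurosporine libraries to the DMSO libraries. Both ratios contain hsp70-2, the member with the largest change, so they are not separate observations. The pairs in this paragraph were not among the planned comparisons. For the genes annotated as dnaK, NCU09485 divided by NCU00692 gave 0.254, 0.237 and 0.261 with DMSO and 2.41, 1.57 and 0.338 with staurosporine.

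J-domain genes, which encode the proteins that start the Hsp70 cycle, lay on both sides of 0 in 0 Ca2+ medium. Of 13 genes 7 were lower and 2 higher by the size rule there, 6 and 3 under equal sums, where 20.9% and 18.7% of all genes were, and 13.8% and 28.3% under equal sums. In standard medium 1 was lower and 1 higher, where 14.9% and 13.4% of all genes were, and in 20 mM CaCl2 medium 0 and 0, where 6.16% and 2.62% were. NCU07414 was at 119.5, 124 and 125 FPKM with DMSO and at 228, 17.1 and 140.3 with staurosporine. Like hsp80 it lay above its DMSO level in standard and below it in 0 Ca2+ medium, with log2 ratios of 0.93 and -2.78. NCU00170 was at 49.0 and 7.89 FPKM in 0 Ca2+ medium with DMSO and staurosporine, NCU07713 at 19.9 and 2.98, and the gene annotated as chaperone dnaJ, NCU00465, at 93.1 and 21.8. The mitochondrial DnaJ gene NCU05196 was at 38.8 and 10.6. These 4 genes had log2 ratios between -2.49 and -1.78 in 0 Ca2+ medium and between -0.89 and -0.01 in standard medium. Under equal sums 3 of the 4 standard ratios were above 0, at 0.33 for NCU00170, 0.18 for NCU00465 and 0.88 for NCU05196.

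Other J-domain genes were high where those were low. NCU02491 was at 15.2, 15.3 and 14.3 FPKM with DMSO and at 20.3, 72.2 and 12.9 with staurosporine. Its log2 ratio was 2.17 in 0 Ca2+ medium, which is the highest of any member there. NCU12072 was at 13.9, 13.0 and 13.4 FPKM with DMSO and at 10.1, 40.6 and 6.73 with staurosporine. As deposited both passed the size rule upward in 0 Ca2+ medium only. Under equal sums NCU02491 also passed it in standard medium, at 1.28, beside 2.62 in 0 Ca2+ medium. NCU12072 was then at 0.42 and 2.02 in these media. NCU02424, with DnaJ and TPR domains, was at 16.0, 15.8 and 18.9 FPKM with DMSO and at 50.7, 28.1 and 25.8 with staurosporine, above all DMSO values in every medium (log2 ratios 1.60, 0.79 and 0.43, limma mean 0.94, SE 0.38, adjusted p = 0.344). The gene for the DnaJ chaperone of the endoplasmic reticulum, NCU03335, was at 20.5 and 31.9 FPKM in standard and 22.8 and 33.6 in 0 Ca2+ medium, and at 21.1 with either agent in 20 mM CaCl2 medium.

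**Figure D4:**
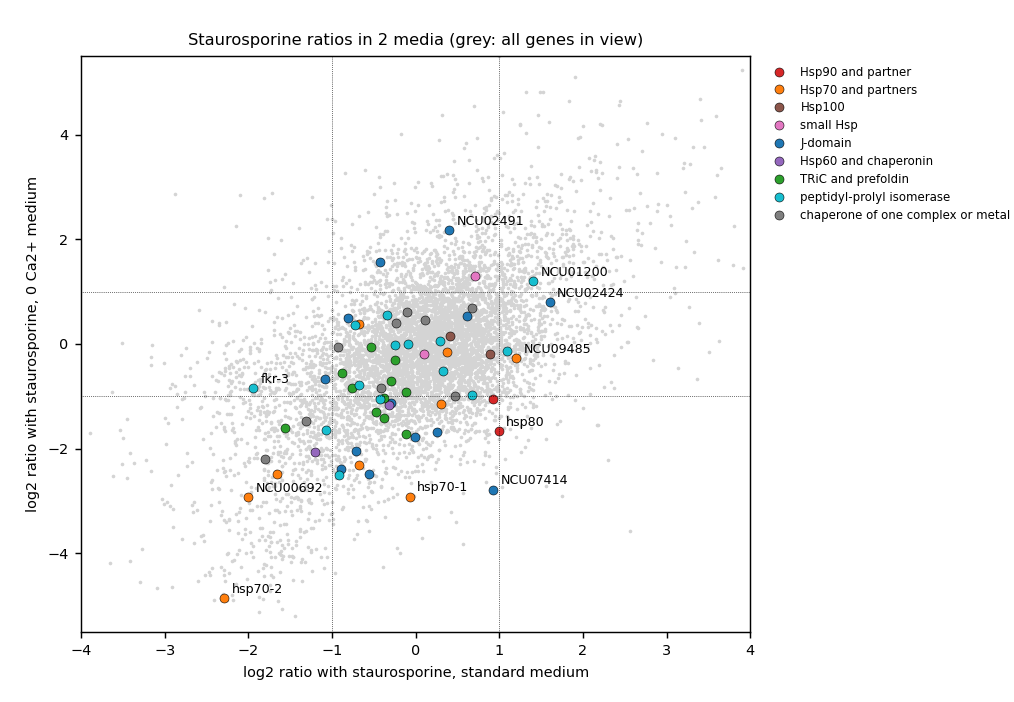
Log2 ratio with staurosporine in standard medium (x axis) against that in 0 Ca2+ medium (y axis) for the members, coloured by role, over all genes counted in both media that lie within the axes (grey). Dotted lines mark a ratio of 2 times. The lower right holds hsp80 at 0.99 and -1.66 and NCU07414 at 0.93 and -2.78, and the lower left hsp70-2 at -2.29 and -4.86.

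Across all members, 5 of 64 had a ratio above 0 in standard medium while being lower by at least 2 times in 0 Ca2+ medium, against 5.02% of all genes. They were hsp80, STI1, NCU07414, NCU02490 and NCU04172. A further 8 passed the size rule downward in both media, against 9.01% of all genes. The ratio of a member in 0 Ca2+ medium was at least 2 times below that in standard medium for 20 members, against 21.7% of all genes, and at least 2 times below that in 20 mM CaCl2 medium for 21, against 20.7%. It was at least 2 times above for 6 members against standard medium, where 14.9% of all genes were, and for 5 against 20 mM CaCl2 medium, where 23% were. The shares below were thus above the background and the shares above under it. Their median difference was -0.56 between 0 Ca2+ and standard medium and -0.57 between 0 Ca2+ and 20 mM CaCl2 medium, where all genes had -0.17 and 0.044.

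Hsp100 and small Hsp genes, classes known for their induction by heat, were at low levels. The disaggregase gene hsp98 was at 16.5, 23.3 and 19.5 FPKM with DMSO and at 31.4, 20.2 and 14.9 with staurosporine. Its highest log2 ratio was 0.89 in standard medium, which became 1.78 under equal sums. Its mitochondrial counterpart hsp78 lay between 9.23 and 19.6 FPKM in the 6 libraries, with a standard ratio of 0.41, or 1.29 under equal sums. The small Hsp gene hsp30 was at 10.5, 14.0 and 14.3 FPKM with DMSO and at 17.7, 35.8 and 19.8 with staurosporine. Every staurosporine value of hsp30 lay above every DMSO value, under equal sums too, with ratios of 0.71, 1.30 and 0.45 (limma mean 0.82, SE 0.36, adjusted p = 0.368). NCU09420, an hsp20-like gene, lay between 1.12 and 2.32 FPKM, too low for more than a level.

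Both genes of the class of Hsp60 and chaperonin were lowest in 0 Ca2+ medium with staurosporine. Hsp60 forms the folding chamber of the mitochondrial matrix. The hsp60 gene was at 335, 343 and 287 FPKM with DMSO and at 268, 153 and 313 with staurosporine, and the gene annotated as chaperonin, NCU04334, was at 344, 408 and 349.6 with DMSO and at 149, 97.0 and 289 with staurosporine. For NCU04334 the groups did not overlap, while for hsp60 the 20 mM CaCl2 library lay among the DMSO values. The log2 ratios of hsp60 were -0.32, -1.16 and 0.12, with the first at 0.59 under equal sums, and those of NCU04334 were -1.20, -2.06 and -0.27, with the last at 0.31 under equal sums.

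Subunits of TRiC and prefoldin lay below their DMSO levels in every medium as deposited, while under equal sums 10 of 11 lay above 0 in standard medium. TRiC is the cytosolic chaperonin that folds actin and tubulin, and prefoldin hands these chains to it. All 8 TRiC genes and all 3 prefoldin genes had a ratio below 0 in each medium as deposited, as did 23% of all genes. For 10 of these 11 the 3 staurosporine values lay below all 3 DMSO values, against 14.8% of all genes. Under equal sums 1 of the 11 did, against 2.76% of all genes. Of all genes counted in standard medium, 5862 of 7167 lay above 0 under equal sums. By the size rule 1 of the 11 was lower in standard, 5 in 0 Ca2+ and 2 in 20 mM CaCl2 medium. The shares of all genes were 14.9%, 20.9% and 6.16%. Under equal sums 0, 2 and 0 of the 11 were lower, against 5.11%, 13.8% and 1.72% of all genes. Without drug these were among the steadiest members, with a median DMSO range of 0.14 on the log2 scale. The median log2 ratio of the TRiC genes was -0.34 in standard, -0.98 in 0 Ca2+ and -0.36 in 20 mM CaCl2 medium, and 0.57, -0.53 and 0.22 under equal sums. The widest TRiC difference was that of subunit gamma, NCU01843, at 128, 132 and 120.2 FPKM with DMSO and 119, 39.6 and 90.2 with staurosporine. The exception among the 11 was NCU02839, annotated as T-complex protein 1, at 193 and 185 FPKM in 0 Ca2+ medium. Of the genes annotated as subunit beta, NCU02207 had a ratio of -1.03 and NCU09700 of -0.31 in 0 Ca2+ medium, so subunits of 1 complex differed in size of ratio.

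The prefoldin genes lay below their DMSO levels in all media as deposited. Subunit 3, NCU02264, was at 126, 139 and 137 FPKM with DMSO and at 42.1, 44.8 and 61.0 with staurosporine. It was lower by at least 2 times in each medium, with log2 ratios of -1.56, -1.61 and -1.16, and it stayed below all DMSO values under equal sums, at -0.67, -1.17 and -0.58. Its limma mean was -1.44 (SE 0.33, adjusted p = 0.292), with the lowest unadjusted p of any member, 0.00374. Subunit 2, NCU09249, was at 92.2, 100.4 and 99.6 FPKM with DMSO and 53.8, 55.8 and 48.5 with staurosporine, and subunit 6, NCU06941, at 141, 127 and 127 and at 76.3, 86.4 and 70.3. Unlike the Hsp70 genes, all 3 had similar ratios in 20 mM CaCl2 medium and in the other media as deposited, from -1.61 to -0.55 over the 9 values. Under equal sums subunits 2 and 6 were near 0 in standard medium, at 0.13 and 0.02.

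**Figure D5:**
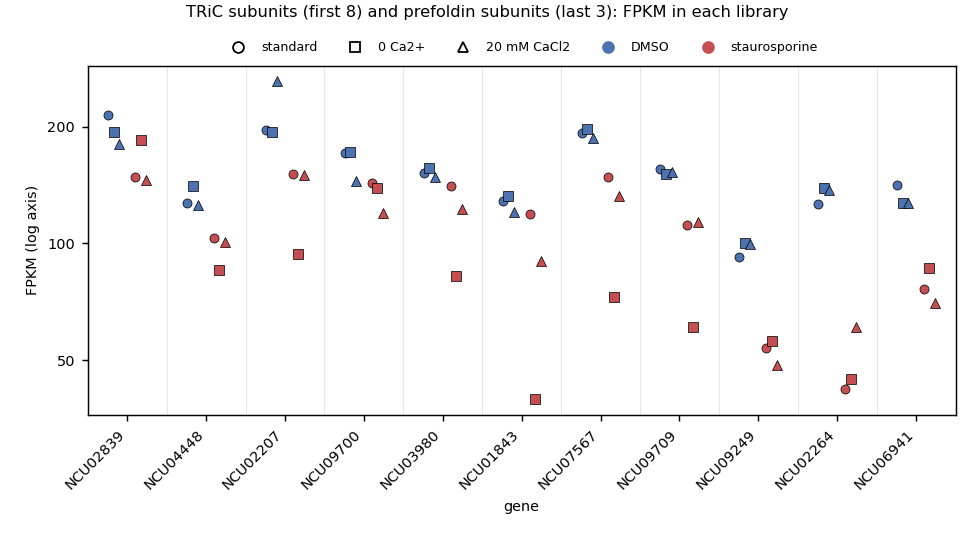
FPKM on a log axis (y axis) of 8 TRiC genes and, at the right, 3 prefoldin genes (x axis) in each of the 6 libraries. Blue marks DMSO and red staurosporine, and each marker shape is 1 medium with 1 library. For 10 of the 11 genes all red points lie below all blue points, and the prefoldin gene NCU02264 shows the widest gap, with red points from 42.1 to 61.0.

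Peptidyl-prolyl isomerase genes lay on both sides of their DMSO levels. The abundant csr-1 was at 3182, 3967 and 4273 FPKM with DMSO and at 2673, 3938 and 2699 with staurosporine. Its log2 ratio farthest from 0 was -0.66 in 20 mM CaCl2 medium as deposited. Under equal sums it was 0.66, in standard medium. The abundant fkr-2 was at 1465, 1594 and 1682 FPKM with DMSO and at 886, 2045 and 944 with staurosporine, so it was high in 0 Ca2+ medium where hsp70-2 was low. Its log2 ratios were -0.72, 0.36 and -0.83, with the first at 0.19 under equal sums. Isomerase B, NCU01200, whose human counterpart works in the endoplasmic reticulum, was at 368, 273 and 467 FPKM with DMSO and at 977, 630.4 and 583 with staurosporine. It lay above all DMSO values in every medium, under both scalings, with ratios of 1.41, 1.20 and 0.32 (limma mean 0.98, SE 0.37, adjusted p = 0.331).

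The gene fkr-3 (NCU04371), named for FK506 like fkr-2, was at 20.1, 18.3 and 59.3 FPKM with DMSO and at 4.49, 9.75 and 4.15 with staurosporine. It lay below all DMSO values in each medium, with log2 ratios of -1.94, -0.85 and -3.55 and a limma mean of -2.11 (SE 0.54, adjusted p = 0.292). The 20 mM CaCl2 ratio is measured against the 1 DMSO library in which fkr-3 was high, where it was 1.52 above standard medium on the log2 scale. The parvulin gene ssp-1 was at 94.3, 117 and 101 FPKM with DMSO and at 202, 107 and 65.0 with staurosporine. As deposited it was high in standard and low in 20 mM CaCl2 medium, at ratios of 1.09 and -0.63. The latter was -0.05 under equal sums. NCU06433, annotated as pin-4, was at 87.8, 93.9 and 96.9 FPKM with DMSO and at 45.9, 15.6 and 58.6 with staurosporine. Its ratios were -0.92, -2.51 and -0.72, and all 3 staurosporine values lay below the DMSO values. Under equal sums they still did, but narrowly, with ratios of -0.02 in standard, -2.08 in 0 Ca2+ and -0.14 in 20 mM CaCl2 medium. The authors' deposited table of 0 Ca2+ medium does not call it, at a q of 0.872.

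Several isomerases have human counterparts in the spliceosome, and these genes did not go one way. Isomerase H, NCU02614, was at 56.9, 49.3 and 47.8 FPKM with DMSO and at 26.5, 15.0 and 35.2 with staurosporine. The isomerase-like 1 gene NCU00578 was at 35.5, 31.1 and 31.5 with DMSO and at 26.1, 14.5 and 22.4 with staurosporine. The cwc-27 gene NCU08514 lay between 16.9 and 18.7 FPKM with DMSO and between 10.4 and 16.7 with staurosporine. Each of these 3 had non-overlapping groups as deposited, although in 20 mM CaCl2 medium all 3 ratios turned above 0 under equal sums (0.14, 0.09 and 0.54), as did those of NCU00578 (0.46) and NCU08514 (0.18) in standard medium. The isomerase-like 3 gene NCU10388 went the other way, at 16.4 to 21.5 FPKM with DMSO and 22.2 to 26.4 with staurosporine. The isomerase-like 2 gene NCU00181 was at 11.1 and 16.8 FPKM in 0 Ca2+ medium and had ratios of -0.34 in standard and -0.29 in 20 mM CaCl2 medium, which turned to 0.50 and 0.24 under equal sums. Of the 14 isomerase genes 2 passed the size rule upward and 2 downward in standard medium, 1 and 3 in 0 Ca2+ and 0 and 1 in 20 mM CaCl2 medium. The shares over all genes were 13.4% and 14.9%, 18.7% and 20.9%, and 2.62% and 6.16%, so the isomerase counts lay near or below the background.

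Chaperones of single complexes or metals held both low and high genes. BCS1 (NCU03231), whose yeast counterpart inserts the Rieske protein into complex III, was at 30.8, 36.0 and 30.1 FPKM with DMSO and at 8.09, 7.08 and 22.2 with staurosporine. Cox17 (NCU02530), which carries copper to cytochrome c oxidase, was at 67.5, 103 and 77.1 with DMSO and at 26.5, 36.9 and 52.6 with staurosporine. Both had non-overlapping groups, with ratios of -1.81, -2.19 and -0.43 for BCS1 and -1.32, -1.46 and -0.54 for Cox17, and in 20 mM CaCl2 medium these became 0.14 and 0.04 under equal sums. Another gene annotated as bcs1, NCU03921, was at 5.78, 4.96 and 5.90 FPKM with DMSO and at 9.84, 8.63 and 16.7 with staurosporine. It was the only member higher by at least 2 times in 20 mM CaCl2 medium, at 1.36, and with a pseudocount of 5 no member reached that size there. The copper chaperone of superoxide dismutase 1, NCU07851, was at 52.4 and 80.5 FPKM in 0 Ca2+ and at 38.2 and 22.5 in 20 mM CaCl2 medium. Frataxin, of iron-sulfur cluster assembly, was at 34.8 and 17.8 FPKM in standard medium and at 45.9 and 44.3 in 0 Ca2+ medium. The remaining 4 (the VTC1 and VTC4 proteins of the vacuolar polyphosphate complex, the chitin synthase export chaperone and the tubulin-specific chaperone) had ratios between -0.99 and 0.47.

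The medium alone gave few differences. Between the 0 Ca2+ and standard DMSO libraries 0 of 64 members passed the size rule upward and 0 downward, where 2.99% and 2.33% of all genes did. Between the 20 mM CaCl2 and standard DMSO libraries 1 was higher, fkr-3, and 0 lower, where 2.12% and 0.801% of all genes were. These comparisons share the standard DMSO library. The widest value in 0 Ca2+ medium was 0.69 for GrpE (NCU01516), at 263 FPKM against 163. After fkr-3 the widest in 20 mM CaCl2 medium were 0.64 for the low hsp20-like gene NCU09420 and -0.58 for the Hsc70 cochaperone NCU10273, at 169 FPKM against 253.

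The authors' own calls gave similar numbers. In the authors' deposited table of standard medium 7 members are called higher and 9 lower, where 12.8% and 13.9% of the testable genes are. In the authors' deposited table of 0 Ca2+ medium 3 are called higher and 26 lower, where 15.5% and 20.4% are, and in that of 20 mM CaCl2 medium 1 and 3, where 1.96% and 4.18% are. In the authors' deposited tables of media with DMSO 0 members are called higher and 0 lower in 0 Ca2+ medium, where 2.01% and 1.94% of testable genes are, and 1 (fkr-3) and 0 in 20 mM CaCl2 medium, where 1.25% and 0.503% are. Those calls come from single libraries.

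Of the folding genes that the rule leaves out, 17 of 19 had a ratio above 0 in standard medium, 6 of them by at least 2 times. Of all genes counted there, 3926 of 7167 had a ratio above 0. Under equal sums 18 of the 19 lay above 0, where 5862 of 7167 genes did. By the size rule 15 were then higher, where 47.2% of all genes were. The list was drawn up by product words and symbols for folding in the endoplasmic reticulum, Hsp90 partners, heat shock factors and protein breakdown. Its words also match the ribosomal protein gene NCU01948, which is no folding gene. In limma's test over the media 0 of the 19 passed, with 1 at an unadjusted p below 0.05 (NCU01948) and a lowest adjusted p of 0.293. In standard medium 6 of the 19 passed the size rule upward and 1 downward as deposited, where 13.4% and 14.9% of all genes did. The median of the 19 was 0.76, against 0.11 for all genes, and 1.64 against 0.94 under equal sums. In 0 Ca2+ medium 1 was higher and 2 lower, at a median of -0.31 (0.13 under equal sums), where 18.7% and 20.9% of all genes were. In 20 mM CaCl2 medium the counts were 0 and 1, where 2.62% and 6.16% of all genes were counted.

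Several of these encode folding helpers of the endoplasmic reticulum. The grp78 gene, for the Hsp70 of that compartment, was at 258, 246 and 261 FPKM with DMSO and at 641, 106 and 404 with staurosporine. The disulfide isomerase gene NCU00813 was at 17.01, 12.5 and 21.8 with DMSO and at 56.9, 14.6 and 36.9 with staurosporine. Both were highest in the standard staurosporine library, and grp78 was lowest in the 0 Ca2+ one. CDC37 (NCU00472), which brings kinases to Hsp90, was at 28.5, 40.5 and 31.7 FPKM with DMSO and at 93.2, 63.7 and 15.6 with staurosporine. Aha1 (NCU04087), which speeds the ATPase of Hsp90, was at 105, 109 and 117 with DMSO and at 110.3, 21.6 and 124 with staurosporine, so the Hsp90 partners did not share 1 pattern. The heat shock factor genes are named outside the rule of largest ratio, after their values were seen. The gene hsf-1 was at 7.39, 10.04 and 7.20 FPKM with DMSO and at 11.4, 5.01 and 10.7 with staurosporine, and hsf-2 lay between 10.8 and 19.0 in all libraries. An ATP-dependent Clp protease gene, NCU05427, was at 8.03 and 47.1 FPKM in 0 Ca2+ medium, the highest ratio of the list at 2.41.

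In the NC12 assembly hsp70-2 lies next to NCU02074, annotated as endoplasmic oxidoreductin-1. The log2 ratios of NCU02074 were 1.03, -0.41 and -0.03, beside -2.29, -4.86 and 0.01 for hsp70-2, so the signs differed in standard medium, were both below 0 in 0 Ca2+ medium, and both values lay near 0 in 20 mM CaCl2 medium. Likewise hsp80 lies next to fkr-2, and their ratios were 0.99, -1.66 and 0.15 for hsp80 and -0.72, 0.36 and -0.83 for fkr-2.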

How the data were processed

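Per the file headers, 5 deposited tables of 9691 genes each give the FPKM of 2 libraries, which the authors computed, with their log2 ratio, p-value, q-value and call. The submitters' processing notes name TopHat2 2.0.4, Cufflinks 2.0.2 and Cuffdiff for the 50 bp reads. Which genome build was used is not given in the sources used here. A library that appears in several tables had identical values (0 genes differing). The files hold no counts, so depth is unknown and no counting interval is given.

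From these values log2((FPKM + 1) ratio) was computed, which understates changes of low genes. Within 1 medium, genes with a mean of at least 1 FPKM over the 2 libraries were counted at a size of at least 1, with no test. Over the media, limma 3.58.1 (R 4.3.3; two-sided moderated test, trend on the mean) took the 3 within-medium ratios of 7415 genes as repeats, and its spread mixes library noise with effects of the media. SE is limma's moderated standard error. Symbols came from a RefSeq table (assembly NC12), in which 65 of 66 members were found by locus tag. Promoter motifs were not searched, since no sequence was used here. Any member may be named with its values; those described in full are, per role, up to 4 with the largest ratios and up to 2 with the highest levels, and of other folding genes up to 6 with the largest ratios. Alternatives were other pseudocounts (0.1, 5), filters, centring, equal sums and leaving out a pair. The members, roles and lists were chosen with earlier results of these data known. Python 3.11.15, pandas 2.3.3, numpy 2.4.6 and matplotlib 3.10.9 were used.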

Additional observations from a re-analysis of the deposited data

Results flagged for a closer look

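Some members had staurosporine ratios of opposite sign in 2 media that differed by at least 2 on the log2 scale. With 1 library per group these differences were not tested. Between 0 Ca2+ and standard medium the ratio differed by -2.66 for hsp80 and by -3.71 for the J-domain gene NCU07414. Between 0 Ca2+ and 20 mM CaCl2 medium it differed by -4.87 for hsp70-2, -3.44 for hsp70-1, -2.40 for hsp70-5 and -2.95 for NCU07414, and in the other direction by 2.30 for NCU02491 and 2.46 for NCU12072, both J-domain genes. Between 20 mM CaCl2 and standard medium it differed by 2.30 for hsp70-2, whose ratio in 20 mM CaCl2 medium was only just above 0.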

How the results depend on the processing

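No group has more than 1 library, so the libraries were paired by medium. An unpaired limma fit gave the same count of 0 members. Leaving out 1 pair of libraries gave between 0 and 4 members, and the fit that gave 0 members called 0 of all genes. Equal FPKM sums moved the counts most: with staurosporine 20 higher and 3 lower in standard medium, 7 higher in 0 Ca2+ medium, and 5 higher and 1 lower in 20 mM CaCl2 medium. Centring gave 1 lower in 20 mM CaCl2 medium and a pseudocount of 5 gave 0 higher there. The cause was not tested. Of 82 counts under alternatives 73 were within 1.5 times of the reported ones. Many of these were counts of 0 that stayed at 0, so the number says little about stability. None of the ratios of at least 2 times within a medium changed sign under the pseudocounts and scalings tried. Leaving out the 0 Ca2+ pair from the count of members with non-overlapping groups was chosen after seeing the data.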
